A study of Mus musculus with 8 samples.

Results

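The Mu-class glutathione transferase genes *Gstm1*, *Gstm2*, *Gstm3*, *Gstm4*, *Gstm5*, *Gstm6* and *Gstm7* were examined in neural progenitor (NP) cells with and without *Sox3*. They were picked out of the array by gene symbol, and the family was chosen by the genotype difference of *Gstm6*, which was already known to be among the largest falls in these data. Members were found as 8 rows for 7 genes, of the 23410 rows that carry a gene symbol and 35556 rows in all. *Gstm3* has 2 rows. Each row is a transcript cluster, a set of array probes along a transcript that is summarised into a single log2 signal.

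RNA came from Day 4 of monolayer differentiation of R1 mouse ES cells in the serum-free medium N2B27, in which ES cells turn into NP cells. The *Sox3* null cells have GFP in place of the single *Sox3* exon. The comparison cells, titled Conditional and given as *Sox3* positive, carry a conditional *Sox3* allele and are called control here. There were 4 cultures of each genotype, 2 in each of 2 differentiation series (batch 1, replicates 1 and 2, and batch 2, replicates 3 and 4), with 1 Affymetrix GeneChip Mouse Gene 1.0 ST array per culture. Each genotype is carried by its own ES cell line, so the loss of *Sox3* and other ways in which these lines differ cannot be told apart. The number of clones per genotype was not given in the sources used here. In bulk RNA, fewer cells that express a gene and less RNA per cell cannot be told apart either. The array medians of the named rows lay between 7.63 and 7.70, and *Sox3* itself read 8.37 to 8.67 on the null arrays and 9.73 to 9.92 on the control arrays.

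Glutathione transferases are enzymes that join the tripeptide glutathione to reactive, mostly fat-soluble molecules, which makes them easier to export and less harmful. The Mu class works as dimers in the cytosol. Several of its genes are known targets of NRF2, the factor that switches on antioxidant genes under oxidative stress. The mouse genes form a tandem array on chromosome 3 and are close paralogs. In the gene order of GRCm38.p6 they run *Gstm5*, *Gstm7*, *Gstm6*, *Gstm3*, *Gstm2*, *Gstm1* and *Gstm4*, between *Eps8l3* and *Ampd2*.

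The closeness of the paralogs bears on every value given here, since a probe in a shared stretch can bind the RNA of more than 1 member. Probe sequences were not analysed here. Sequence of all 7 genes was at hand in RefSeq windows of 300 bases (250 before and 50 after an annotated start, build GRCm38.p6). In 4 of them the window reaches a stretch that opens with the same ATG. These stretches are printed as an example of sequence that members share, with capitals at the bases that differ from *Gstm6*. They were found by a pattern that fixed most of their first letters. Those letters were bound to match, and members without the pattern were left out. The counts of shared bases are thus no measure of how alike the members are as a whole.
Gstm6 (chr3:107943611-107943633, minus strand): atgcccgtgactctgggttattg
Gstm7 (chr3:107931632-107931654, minus strand): atgcccAtgacActgggttaCtg
Gstm2 (chr3:107986371-107986393, minus strand): atgccTAtgacActAggttaCtg
Gstm3 (chr3:107969125-107969140, minus strand): atgccTAtgacActgg
Over the 23 bases compared, *Gstm6* and *Gstm7* shared 20, *Gstm7* and *Gstm2* shared 21, and *Gstm6* and *Gstm2* shared 18. *Gstm3* could be compared over 16 bases, of which it shared 15 with *Gstm7*, 15 with *Gstm2* and 13 with *Gstm6*. The longest run of identical bases between the whole windows of different members, these stretches included, had a median of 9 over the 21 pairs of genes and reached 16 for *Gstm3* and *Gstm1*. Between the genes next to the array on either side that had a window, it had a median of 8 over 136 pairs and reached 12. Only 1 window of each of these genes was used, but all windows of each member. More windows give more room for a long run, so the values are not like measures.

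*Gstm6*, the member whose fall led to the choice of the family, has 3 annotated starts. The 250 bases before the first and the second are shown because the array values do not say which of them was in use. Both lie on the minus strand, and capitals mark the longest run of 17 bases that they share.
Gstm6, first start (chr3:107953467-107953716): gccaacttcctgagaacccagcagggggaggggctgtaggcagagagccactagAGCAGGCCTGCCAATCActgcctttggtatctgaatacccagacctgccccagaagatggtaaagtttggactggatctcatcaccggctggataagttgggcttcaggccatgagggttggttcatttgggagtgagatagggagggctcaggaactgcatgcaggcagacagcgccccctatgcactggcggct
Gstm6, second start (chr3:107943735-107943984): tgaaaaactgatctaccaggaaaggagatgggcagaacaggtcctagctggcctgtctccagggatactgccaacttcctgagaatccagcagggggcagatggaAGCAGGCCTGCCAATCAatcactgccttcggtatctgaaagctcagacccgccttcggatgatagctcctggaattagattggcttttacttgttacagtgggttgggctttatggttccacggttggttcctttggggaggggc
The 12 windows of the family were searched on both strands for TGACNNNGC, the core of the element that NRF2 binds, for ACAAT and ACAAAG, core letters of SOX factor sites, and for TATAAA, the TATA box. TGACNNNGC was found in 2 of the 12 windows, against 12.4% of all 32851 windows. The matches are shown in capitals.
Gstm5 (chr3:107895797-107895835, plus strand): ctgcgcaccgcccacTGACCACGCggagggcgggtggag
Gstm7, second start (chr3:107931720-107931758, minus strand): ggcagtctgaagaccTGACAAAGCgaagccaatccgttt
ACAAT was found in 3 windows, both of *Gstm7* and that of *Gstm3*, against 31.0% of all windows. ACAAAG was found in 2, that of the second *Gstm7* start, where it overlaps the TGACNNNGC match, and that of the third *Gstm6* start, against 18.7%. TATAAA was found in 3, those of *Gstm5*, the first *Gstm7* start and the second *Gstm1* start, against 13.6%. It lay after the start in *Gstm5*, 231 bases before it in *Gstm7* and 30 bases before it in *Gstm1*. Whether any of these matches works as a TATA box was not tested. Neither of the 2 *Gstm6* stretches printed here holds any of these letters.

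*Gstm6* was lower in every *Sox3* null culture than in every control culture. Its log2 signal was 6.31 and 6.22 in control replicates 1 and 2 (batch 1) and 6.44 and 6.48 in control replicates 3 and 4 (batch 2). In the null cultures it was 5.66 and 5.39 in batch 1 and 5.80 and 5.76 in batch 2. The highest null array thus lay below the lowest control array, and the same held within each batch. The share of all rows with the genotypes apart, over all arrays or within a batch, was not counted here. With 2 arrays per genotype in a batch they can easily fall apart by chance. Nothing is therefore read from such a separation for any member. The means were 6.36 ± 0.118 (SD, n = 4) in control and 5.65 ± 0.186 (SD, n = 4) in null cells, a difference of -0.71 (standard error 0.06) on the log2 scale, or 1.64-fold lower signal. It was -0.74 in batch 1 and -0.68 in batch 2. The order of the 4 groups by mean ran from null batch 1 (5.52) through null batch 2 (5.78) and control batch 1 (6.27) to control batch 2 (6.46). *Gstm6* was dim, with a mean brighter than 27.6% of the named rows, and how much of its signal was background was not analysed here. The brightness of different rows does not compare the amounts of their RNA.

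**Figure D1:**
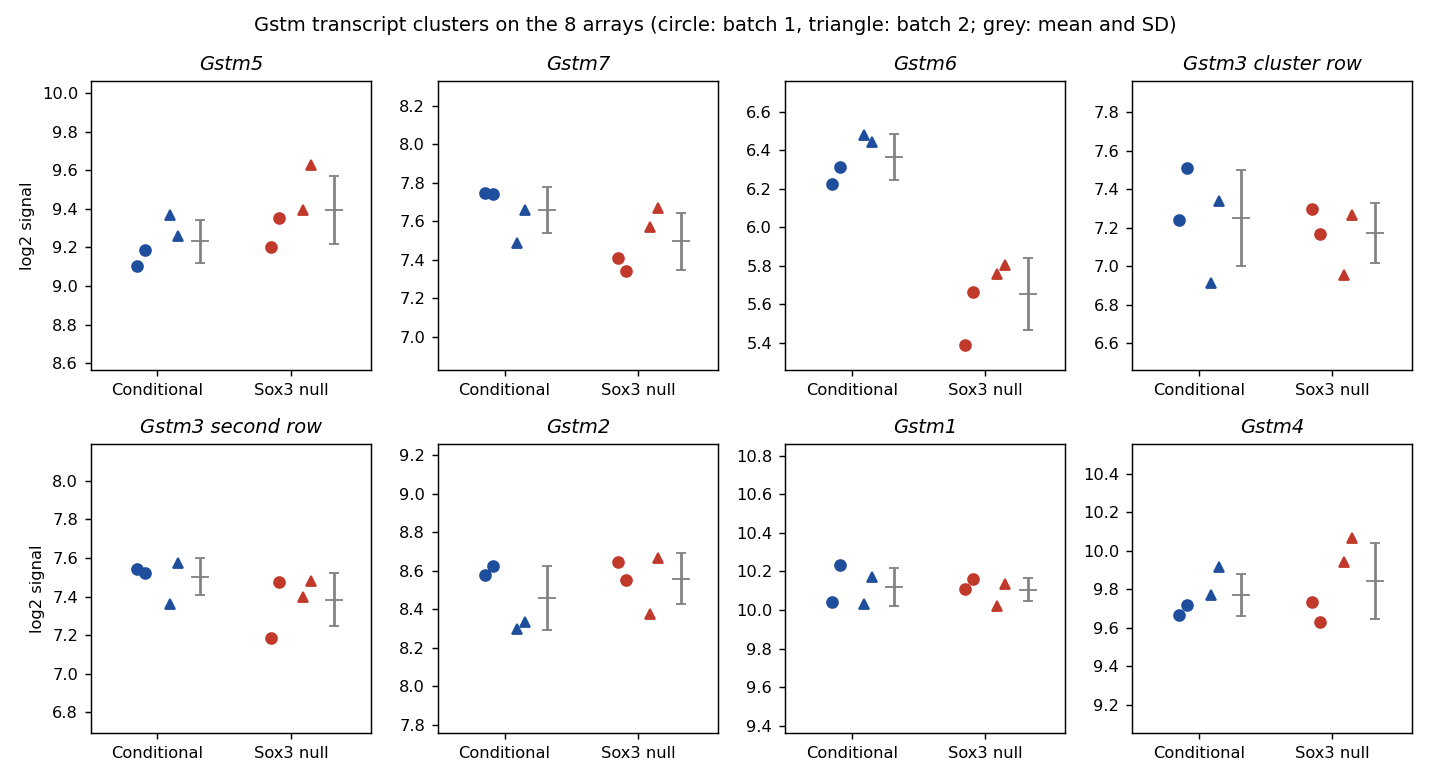
Log2 signal (vertical axis, the same span in every panel but at different levels) of the 8 *Gstm* transcript clusters on the arrays of 4 control (Conditional, blue) and 4 *Sox3* null (red) cultures, with circles for batch 1, triangles for batch 2 and grey marks for the mean and SD of 4 arrays. Only in the *Gstm6* panel do the genotypes not overlap, with null arrays at 5.39 to 5.80 and control arrays at 6.22 to 6.48.

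*Gstm5*, at the opposite end of the array of genes from *Gstm4*, was shifted the other way. It read 9.19 and 9.11 in control and 9.36 and 9.20 in null cells of batch 1. In batch 2 it read 9.26 and 9.37 in control and 9.63 and 9.39 in null cells. In each batch the null arrays were the higher ones, but over the batches the genotypes overlapped. The difference was 0.16 (standard error 0.07), with 0.13 in batch 1 and 0.20 in batch 2.

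*Gstm7*, the gene between *Gstm5* and *Gstm6*, had unlike genotype differences in the 2 batches. The test of whether they differed did not pass its adjusted threshold. In batch 1 it read 7.74 and 7.74 in control against 7.34 and 7.41 in null cells, a difference of -0.37. In batch 2 it read 7.66 and 7.49 in control against 7.67 and 7.57 in null cells, a difference of 0.04. The null arrays were apart from the controls in batch 1 and overlapped them in batch 2, from which, as for every member, nothing is read. The difference over both batches was -0.16 (standard error 0.08). The second *Gstm3* row had a similar but smaller split, with -0.21 in batch 1, where both null arrays (7.47 and 7.18) lay below both control arrays (7.52 and 7.54), and -0.03 in batch 2.

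The 2 rows of *Gstm3*, a transferase gene also called *Fsc2* in the gene table, were not alike in all respects. The first lies among the other *Gstm* rows of the array. The identifiers on either side of the second belong to rows of chromosome 10 genes, *Frk* and *Hs3st5*, although the platform annotation gives both rows the same accessions. Which locus its probes match was not analysed here. The first row read 6.91 to 7.51 on the control and 6.96 to 7.30 on the null arrays, with a difference of -0.08 (standard error 0.10). The second read 7.36 to 7.58 on the control and 7.18 to 7.48 on the null arrays, with a difference of -0.12 (standard error 0.08). Over the 8 arrays, which share their batches, Pearson's r was 0.33 between these rows and 0.83 between the first row and *Gstm1*, given as a description.

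*Gstm1*, *Gstm2* and *Gstm4*, at the far end of the array of genes, differed little by genotype. *Gstm1*, among the best-studied enzymes of the class, read 10.03 to 10.23 on the control and 10.02 to 10.16 on the null arrays (difference -0.01, standard error 0.06). *Gstm2* read 8.62, 8.58, 8.33 and 8.30 on control replicates 1 to 4 and 8.55, 8.64, 8.67 and 8.37 on null replicates 1 to 4 (difference 0.10, standard error 0.07). *Gstm4* read 9.67 to 9.92 on the control and 9.63 to 10.07 on the null arrays (difference 0.07, standard error 0.06). For *Gstm2* and *Gstm4* the null arrays were both higher than the controls in batch 2, by a mean of 0.20 and 0.16, and the genotypes overlapped in batch 1, with 0.00 and -0.01.

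Each row was fitted with limma for genotype and batch over all named rows, and called at a Benjamini-Hochberg adjusted p of 0.05 or less if the difference was also at least 1.4-fold. For genotype, 1 of the 8 rows was called, *Gstm6*, where 0.431% of all rows were. The count was 0 in the plain linear model, in batch 1 alone, and among rows at or above the median signal, where *Gstm6* is not. Since this contrast chose the family, nothing is read from that count and no p is given for its members. Over the family 5 rows lay below 0 and the median difference was -0.05, against a median of 0.00 over all rows. In the plot of *Gstm6* against its neighbours, the other family rows lay between -0.16 and 0.16.

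Of the 20 measured genes nearest the *Gstm* array, 10 on each side, none was called for genotype by limma, against 0.431% of all rows. That they differed less than *Gstm6* was fixed by the choice of *Gstm6*, and nothing is read from it. An unadjusted p under 0.05 was found for 4 of the 20, against 13.1% of all rows, and 1 had an adjusted p of 0.05 or less. Their differences ran from -0.19 to 0.34, with a median of 0.01. *Csf1*, which encodes the growth factor of macrophages, was higher in null cells by 0.34 (standard error 0.06, adjusted p = 0.0159 from limma), short of 1.4-fold. The flanking genes were the non-coding RNA *4933431E20Rik*, which overlaps the start of *Gstm5* in the gene table and has its own start on the other strand, and *Ampd2*, an enzyme gene of purine metabolism. *4933431E20Rik* had a difference of 0.24 (adjusted p = 0.180) and *Ampd2* had 0.05 (adjusted p = 0.746).

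**Figure D2:**
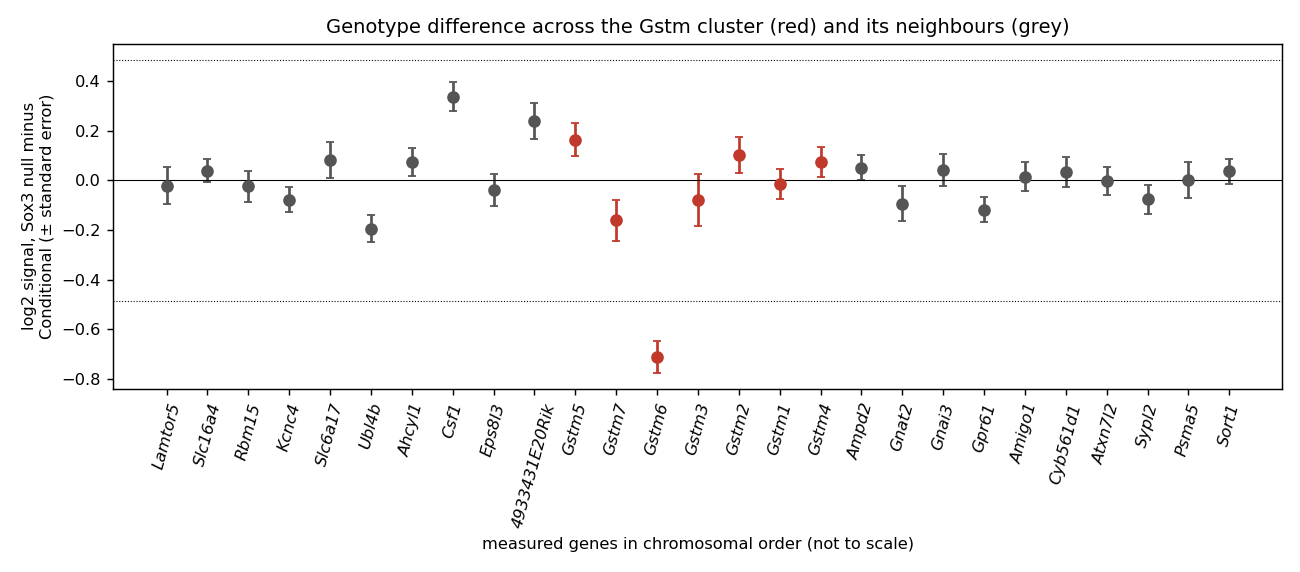
Difference in log2 signal, *Sox3* null minus control (vertical axis, points with standard errors from limma, 4 arrays per genotype), for the measured genes around the *Gstm* array in chromosomal order (horizontal axis, not to scale), with the first *Gstm3* row standing for that gene. Dotted lines mark 1.4-fold, and *Gstm6* at -0.71, which was chosen for its fall, is the only gene plotted beyond them.

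Batch gives a comparison that did not choose the family. By the same thresholds 0 of the 8 rows were called for batch by limma, where 2.49% of all rows were, and none was called in a plain linear model. At an unadjusted p under 0.05 there were 4 of the 8, against 31.5% of all rows. At any fold change, 2 of the 8 rows had an adjusted p of 0.05 or less, *Gstm4* and *Gstm6*, where 20.2% of all rows did. *Gstm4* was higher in batch 2 by 0.24 (standard error 0.06, adjusted p = 0.0193 from limma), and each of its batch 2 arrays lay above each of its batch 1 arrays. *Gstm6* was higher in batch 2 by 0.22 (standard error 0.06, adjusted p = 0.0296), and within each genotype both batch 2 arrays lay above both batch 1 arrays. *Gstm5* had 0.20 (adjusted p = 0.0537), *Gstm2* had -0.18 (adjusted p = 0.109) and the first *Gstm3* row had -0.19 (adjusted p = 0.266). The remaining rows lay between -0.05 and 0.04. *Gstm4* had an adjusted p above 0.05 in 5 of its alternatives (up to 0.0769) and *Gstm6* in 8 (up to 0.104).

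Whether the genotype difference itself changed between batches was asked with a product term in limma. No row passed, 0% of the 23410, and the smallest adjusted p over all rows was 0.862. Of the 8 *Gstm* rows, 1 had an unadjusted p under 0.05, against 3.05% of all rows. This was *Gstm7*, whose genotype difference went from -0.37 in batch 1 to 0.04 in batch 2, a term of 0.41 (standard error 0.12, unadjusted p = 0.00540 and adjusted p = 1.00 from limma). For *Gstm6* the term was 0.06 (standard error 0.13). A p above the threshold with 2 arrays per genotype and batch does not show that the batches gave the same difference.

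**Figure D3:**
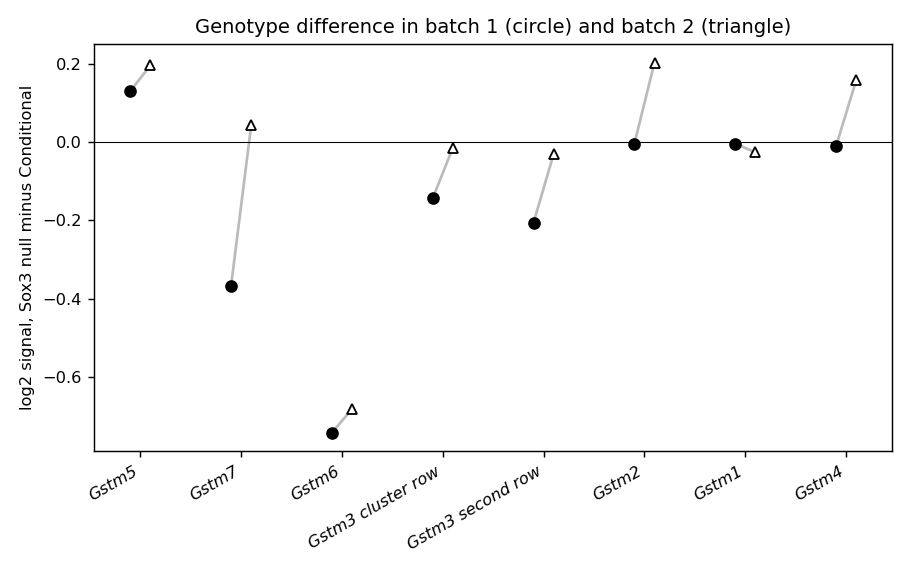
Difference in log2 signal, *Sox3* null minus control (vertical axis), of the 8 *Gstm* transcript clusters in batch 1 (filled circles) and batch 2 (open triangles), each from 2 arrays per genotype. *Gstm6* had -0.74 and -0.68, and *Gstm7* had -0.37 and 0.04.

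The other glutathione transferases are relatives with the same chemistry in other classes, or membrane enzymes of like function. Of 19 listed, 16 were measured, and none rose or fell by the thresholds in limma or in the plain model. Of all rows, 0.431% were called for genotype by limma, so none of 16 lies near that share. At an unadjusted p under 0.05 there were 5 of 16, against 13.1% of all rows. Their median was -0.02, with 11 of 16 below 0 and a range from -0.38 to 0.20. *Gstt1*, a Theta-class enzyme, was lower in null cells by -0.38 (standard error 0.06, adjusted p = 0.0121 from limma), short of the fold threshold, with 8.80 in control and 8.41 in null cells. *Gstk1*, of the Kappa class, had -0.34 (adjusted p = 0.0814).

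Genes that make and recycle glutathione or use it against peroxides were read in the same way. Of 23 measured of 24 listed, none was called for genotype by limma or the plain model, where limma called 0.431% of all rows. An unadjusted p under 0.05 was found for 2 of 23, against 13.1% of all rows. The median was 0.00, with a range from -0.16 to 0.44. *Gpx3*, the secreted glutathione peroxidase, was higher in null cells by 0.44 (standard error 0.06, adjusted p = 0.00377), short of the fold threshold, and *Gpx8*, a peroxidase of the endoplasmic reticulum, had 0.27 (adjusted p = 0.0877). For batch, 1 of 23 was called by limma, against 2.49% of all rows. This was *Chac2*, a glutathione-degrading enzyme, 0.53 higher in batch 2 (adjusted p = 0.00146). An unadjusted batch p under 0.05 was found for 12 of 23, against 31.5% of all rows. At any fold change 9 had an adjusted p of 0.05 or less, against 20.2%.

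Of 25 genes of the NRF2 antioxidant response, 23 were measured and none was called for genotype by limma or the plain model, nor for batch by limma. Of all rows, 0.431% were called for genotype and 2.49% for batch by limma. For genotype 4 of 23 had an unadjusted p under 0.05, against 13.1% of all rows. For batch 14 of 23 did, against 31.5% of all rows, and 11 had an adjusted p of 0.05 or less at any fold change, against 20.2%. The median genotype difference was -0.03, with 14 of 23 below 0. *Hmox1*, the haem-degrading enzyme of the stress response, was lower in null cells by -0.24 (standard error 0.05, adjusted p = 0.0417), and *Osgin1* had -0.19 (adjusted p = 0.139).

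**Figure D4:**
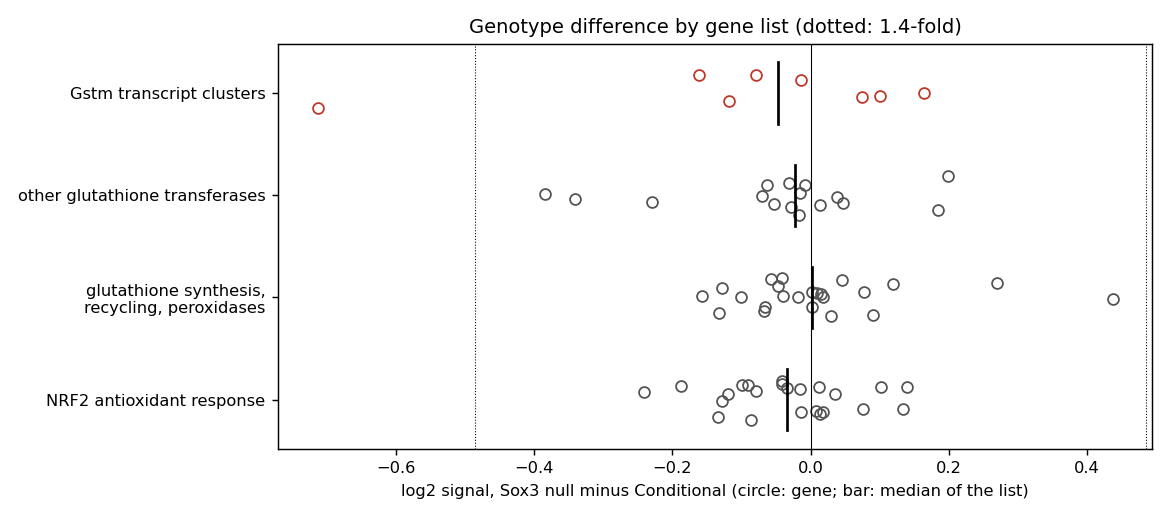
Difference in log2 signal, *Sox3* null minus control (horizontal axis), for the 8 *Gstm* transcript clusters and the measured genes of 3 lists, with a circle per gene or cluster, a bar at each median and dotted lines at 1.4-fold. *Gstm6* at -0.71 is the only circle beyond the dotted lines, but it was chosen for its fall, so nothing is read from this. The medians run from -0.05 to 0.00.

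The rows whose pattern lay nearest to *Gstm6* were sought among rows of 1 symbol outside the family. The measure was the root mean square distance over the 8 arrays after each row was centred on its own mean. The nearest were *Itgb5*, an integrin subunit gene (distance 0.138), the microRNA gene *Mir382* (0.146), *Kctd12b* (0.148), *Otx2*, a homeobox factor of the forebrain and midbrain (0.154), and the microRNA gene *Mir377* (0.158). The median distance of all such rows was 0.395. The genotype difference of *Itgb5* was -0.59, *Mir382* had -0.64, *Kctd12b* -0.53, *Otx2* -0.47 and *Mir377* -0.62. The nearest other *Gstm* rows were *Gstm7* (distance 0.321) and the second *Gstm3* row (0.323), and *Gstm2* was the farthest at 0.469. These rows were picked for likeness on the same arrays, so their differences are a description.

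**Figure D5:**
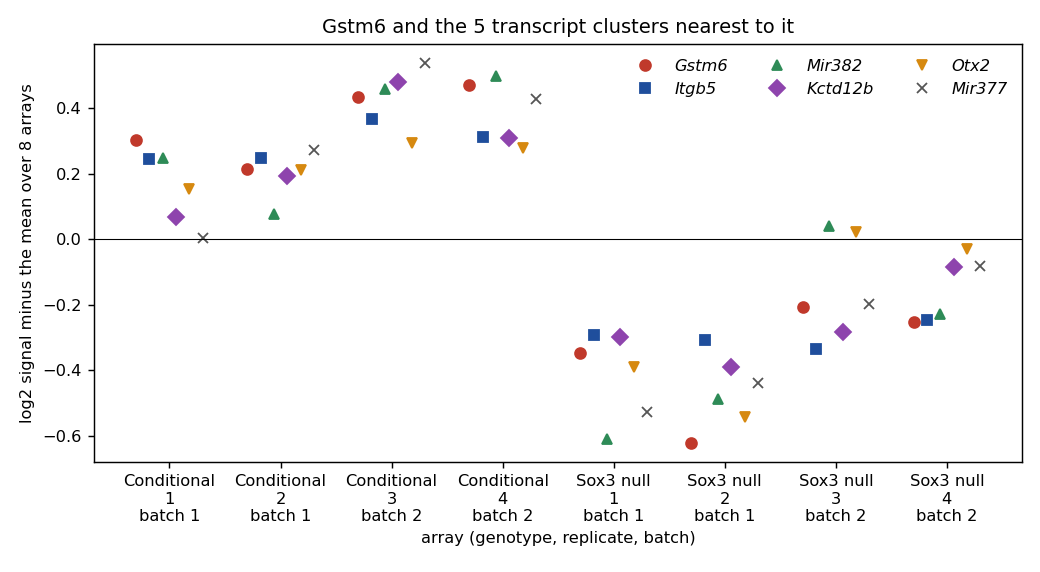
Log2 signal minus the mean of each row over the 8 arrays (vertical axis) for *Gstm6* and the 5 transcript clusters nearest to it, by array (horizontal axis, control arrays on the left, *Sox3* null arrays on the right). *Gstm6* runs from 0.22 to 0.47 on the control arrays and from -0.62 to -0.21 on the null arrays.

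Markers of the cell types such cultures can hold were read on the same arrays. The 10 neural progenitor markers had a mean log2 signal of 11.3 to 11.5 on the control and 11.5 to 11.7 on the null arrays, and 2 of them, *Nes* (0.49, adjusted p = 0.00947) and *Sox9* (0.51, adjusted p = 0.00325), rose in null cells by limma. All 10 differences were above 0, and 6 had an unadjusted p under 0.05. Of all rows, 0.431% were called for genotype and 13.1% had an unadjusted p under 0.05. These shares stand beside the counts of each marker list. Of 9 measured pluripotency markers none was called (4 with an unadjusted p under 0.05, none in the plain model). Their mean signal was 9.13 to 9.35 on the control and 9.14 to 9.21 on the null arrays. Only 6 of the 9 lay below 0, with a median of -0.10 and a range from -0.37 to 0.17. The 2 with the smallest p were *Nanog* (-0.37, adjusted p = 0.0464 from limma) and *Tfcp2l1* (-0.27, adjusted p = 0.0932). Of 10 fibroblast markers *Thy1* fell by limma (-0.51, adjusted p = 0.00525), but only 3 of the 10 lay below 0 and the median was 0.06. An unadjusted p under 0.05 was found for 5 of the 10. Their mean signal overlapped, at 6.81 to 7.02 on the control and 6.74 to 6.96 on the null arrays. Of 10 neuronal markers *Nhlh1* rose by limma (0.55, adjusted p = 0.0264). Only 1 of the 10 lay below 0, 7 had an unadjusted p under 0.05, and 3 had an adjusted p of 0.05 or less at any fold change. Their mean signal was 8.62 to 8.72 on the control and 8.75 to 9.03 on the null arrays. None of the called markers was called in the plain model. Of 9 measured mesoderm and endoderm markers none was called for genotype by limma or the plain model or had an unadjusted p under 0.05. Their mean signal was 6.80 to 7.18 on the control and 6.76 to 7.05 on the null arrays, and the 2 with the smallest p were *Eomes* (-0.26, adjusted p = 0.388) and *Gata6* (-0.13, adjusted p = 0.389). The part of these cell types in the difference of *Gstm6* was not tested.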

How the data were processed

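Total RNA of 8 cultures was read on Mouse Gene 1.0 ST arrays (Affymetrix). The deposited values are log2 signals per transcript cluster, normalized and summarised by the authors. The submitters' processing notes name Partek. Which normalization, summary method and build were used was not given in the sources used here. Rows were named from the platform annotation. Symbols were renewed by gene identifier through the GRCm38.p6 gene table (21698 of 21789 rows with 1 symbol matched). The gene order came from the same table. A further 1621 rows had several symbols, none of them a *Gstm* symbol, and 12146 had none.

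A linear model of genotype and batch was fitted to the 23410 named rows (limma 3.58.1, R 4.3.3). Benjamini-Hochberg adjustment ran over all of them. The terms follow the 2-way ANOVA with batch that the methods name. In limma the spread of each row is also moderated over all rows. The plain linear model lacks that step and is nearer to the named ANOVA. It called 22 rows for genotype and no *Gstm* row. Calls needed an adjusted p of at most 0.05 and at least a 1.4-fold difference. The p-values measure the spread between cultures, which the paper calls biological replicates. Precision is limited by the number of arrays. The residual SD had a median of 0.0869. The steps were tested on simulated data.

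The members, lists and tests were chosen with earlier results of these data known. Named genes are every member, called list genes (up to 4 of a list) or else the 2 with the smallest p, called and flanking neighbours, *Csf1*, *Frk*, *Hs3st5* and *Chac2* (the first 3 chosen after their values or places were seen), and the 5 rows nearest to *Gstm6*. The brightest row stands for a list gene. Motifs were chosen after the values were seen. The alternatives were other treatments of batch and replicate number, other sets of rows, a plain linear model, renewed quantile normalization, averaged rows, single batches and the omission of each array in turn.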

Additional observations from a re-analysis of the deposited data

How the results depend on the processing

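*Gstm6* kept its direction in each of the 16 alternatives that held it, with genotype differences from -0.76 to -0.65. It was called in each of the 8 fits that left out 1 array. All of these alternatives reuse the arrays on which *Gstm6* was chosen, so they are no independent support for its fall. The number of called *Gstm* rows was 0 in place of 1 in the plain linear model, in batch 1 alone, and when rows below the median signal were left out, since *Gstm6* is among those, and it was 1 in the other 15 alternatives. The signs of *Gstm2* and *Gstm4* turned in batch 1 alone, that of *Gstm7* in batch 2 alone (0.04), and that of *Gstm1* in 3 alternatives, none of them called. Over all rows, 101 were called for genotype, against 58 with batch as a random block, 29 without a batch term, 62 over all rows of the table, 22 in the plain linear model, 18 in batch 1 alone and 23 in batch 2 alone. The *Gstm* rows with a batch difference at any fold numbered 0 over all rows of the table and 0 in the plain linear model, and 0 to 2 when 1 array was left out (0 without control replicate 3). With the replicate number as a block the difference of *Gstm6* was -0.71, it was called, and 103 rows were called in all. The deviations of same-numbered cultures correlated at -0.324 in batch 1 and 0.305 in batch 2. With 2 cultures per genotype and batch there is a single such value per batch, and the signs differ. Whether the numbers pair the cultures beyond their batch is not settled by them. Signal over background was not given, which limits what can be said of dim rows such as *Gstm6*.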
